A study of Danio rerio with 28 samples.

Results

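The genes described here are the fibroblast growth factor (FGF) ligands, the bone morphogenetic protein (BMP), growth differentiation factor (GDF) and activin ligands, and the cell surface receptors of both families, measured by bulk RNA-Seq in the adult zebrafish heart. Members were chosen by symbol alone, as every gene whose symbol begins with fgf, bmp or gdf and a digit, with fgfr and a digit or an l, or with bmpr, inhb or acvr. This gave 86 of the 32520 genes listed. They were 25 FGF ligands, 8 FGF receptors, 13 BMP ligands, 10 GDF ligands, 4 activin subunits, 15 BMP and activin receptors, 7 intracellular FGF homologous factors (fgf11 to fgf14, which are not secreted and act on ion channels) and 4 genes that share only the name (2 bmp1 metalloproteases, the kinase bmp2k and fgfr1op2). Where 2 gene IDs carry the same symbol the Ensembl ID is given as well, since the names available here do not tell which of the zebrafish copies each one is.

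The time course compared wild-type fish (WT) with thraa+/- fish, which carry a CRISPR/Cas9 mutation in 1 copy of thyroid hormone receptor alpha a. The sample labels call the mutants thraa KO, while the series design gives them as thraa+/-. Fish were 4 to 6 months old. RNA came from the uninjured ventricular apex, or from the injured zone at 8 hours (8 hpi) and 1, 3, 7 and 15 days (dpi) after about 20% of the ventricle had been resected, with 2 libraries for each of the 12 groups and at least 5 fish pooled in each library. A separate set of 4 libraries held uninjured hearts of WT and thraa-/- fish of the same age, 2 of each, also pooled from at least 5 fish. Their titles say entire heart and their protocol says ventricle.

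FGF ligands bind receptor tyrosine kinases and signal largely through the MAP kinase cascade, which switches on ETV transcription factors and feedback inhibitors of the sprouty and dual specificity phosphatase families. BMPs, GDFs and activins are dimeric ligands of the TGF-beta superfamily. They bind pairs of type I and type II serine/threonine kinase receptors that phosphorylate SMAD proteins, and secreted antagonists such as noggin, chordin and follistatin hold them back. In the regenerating zebrafish heart FGF signalling is known for its part in the epicardial response, and BMP signalling for its part in cardiomyocyte proliferation.

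Total counts per library were 13692204 to 18775025 for the time course and 13656671 to 16532401 for whole hearts. Levels are given as CPM, read counts scaled to a common library size after TMM normalisation, unless stated otherwise. A gene was called where edgeR gave an adjusted p under 0.05 and a log2 fold change of at least 1, or at least 1.5-fold in the whole hearts. The targeted gene thraa lay between 2.56 and 5.51 CPM in the 12 WT libraries and between 3.15 and 6.54 CPM in the 12 thraa+/- libraries, was not called between these genotypes at any time, and was called higher in thraa-/- whole hearts (9.75 and 13.3 CPM against 5.32 and 6.58), so its level did not separate mutant from WT libraries in the direction of a loss of transcript. Cell type markers moved with injury. The summed level of 13 cardiomyocyte markers, of which at most 2 were at 0 in any group given here, was 128200 to 131500 CPM in the uninjured WT apex, 61330 to 63840 at 8 hpi and 30420 to 31390 at 3 dpi, and that of 11 fibroblast markers went from 1435 to 1484 CPM up to 13690 to 13720 CPM at 7 dpi. Most of the cardiomyocyte sum was actc1a, myl7 and cmlc1, with means of 51310, 40130 and 23310 CPM in the uninjured WT apex. Most markers of that list were lower in WT at 3 dpi, but not all. nppa stood at 5116 against 3767 CPM uninjured and myh6 ENSDARG00000090637 at 117.6 against 12.39 CPM. In bulk tissue fewer cells of a type and less RNA per cell cannot be told apart. The libraries of thraa+/- at 8 hpi differed from each other more than any other pair, with a variance 23.9 times that of counting, against 1.88 to 8.68 times in the other groups of the time course.

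Of the 86 members, 49 had enough counts to be tested among the time-course libraries and 53 among the whole hearts. Of 25 FGF ligands, 8 were tested in the time course, and of the other 17, 9 did not exceed 3 counts in any of the 24 libraries and 4 of these were at 0 throughout. All 8 FGF receptors were tested, as were 11 of 15 BMP and activin receptors, 10 of 13 BMP ligands, 3 of 4 activin subunits, 3 of 10 GDF ligands and 2 of 7 intracellular FGF homologous factors. Several FGF ligands that are often discussed in fin and heart regeneration were at or near the counting limit here. The 2 genes named fgf20 reached at most 3 counts (ENSDARG00000007356) and 2 counts (ENSDARG00000086070) in any time-course library. The 2 named fgf8 reached at most 11 (ENSDARG00000003399) and 6 (ENSDARG00000039615), both named fgf10 reached at most 10, and fgf16 at most 13 counts, the last in 1 thraa+/- library at 7 dpi. These genes did not pass the count filter, so differences in them were not tested.

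Compared per transcript length, in TPM, the ligand bmp10 ENSDARG00000109233 was the most abundant member in the uninjured WT apex at 126 and 120 TPM. The decoy-type receptor fgfrl1 followed at 26.1 and 24.6 TPM and inhbb ENSDARG00000040777 at 14.2 and 14.5 TPM. Next came fgf14 at 11.7 and 12.8 TPM and the endothelial BMP receptor acvrl1 at 10.8 and 10.6 TPM. The libraries of neighbours in this order did not overlap, while acvrl1 overlapped the next gene, fgfr1op2, at 10.5 and 10.7 TPM. In WT at 7 dpi the order had changed, with acvrl1 at 37.1 and 37.5 TPM above bmp10 ENSDARG00000109233 at 30.1 and 32.9 TPM.

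Most tested members were called at some time after injury, at about the rate of all genes. In WT, 33 of 49 (67.3%) were called at 1 or more times against 62.0% of all tested genes, 19 of them higher, 15 lower and 1 of these in both directions at different times. In thraa+/- 33 of 49 were called against 56.5% of all genes, 15 higher and 19 lower, again with 1 in both. By time, WT had 6 members higher (16.5% of all genes) and 9 lower (12.5%) at 8 hpi, then 4 higher (14.8%) and 11 lower (10.8%) at 1 dpi, and 8 higher (20.8%) and 13 lower (14.4%) at 3 dpi. At 7 dpi WT had 17 higher (24.2%) and 8 lower (13.6%), and at 15 dpi 5 higher (11.3%) and 6 lower (7.36%). Members of thraa+/- numbered 7 higher (17.5%) and 9 lower (12.9%) at 8 hpi, then 5 higher (16.8%) and 14 lower (13.8%) at 1 dpi, and 8 higher (19.2%) and 7 lower (12.7%) at 3 dpi. At 7 dpi there were 13 higher (22.4%) and 8 lower (14.1%), and at 15 dpi 7 higher (7.88%) and 3 lower (4%). Counted in either direction, the share of all genes called from 8 hpi to 15 dpi was 29%, 25.6%, 35.2%, 37.8% and 18.7% in WT and 30.5%, 30.7%, 31.9%, 36.5% and 11.9% in thraa+/-. The split depends on the scaling. With total counts in place of TMM, which lifts the median log2 fold change of all genes by 0.41 to 0.89 after injury, WT members called higher and lower became 10 and 6, 8 and 8, 17 and 6, 25 and 4, and 11 and 4, and thraa+/- members 11 and 5, 12 and 10, 16 and 4, 23 and 3, and 11 and 1. Under both scalings 7 dpi had the most members called higher in each genotype.

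**Figure D1:**
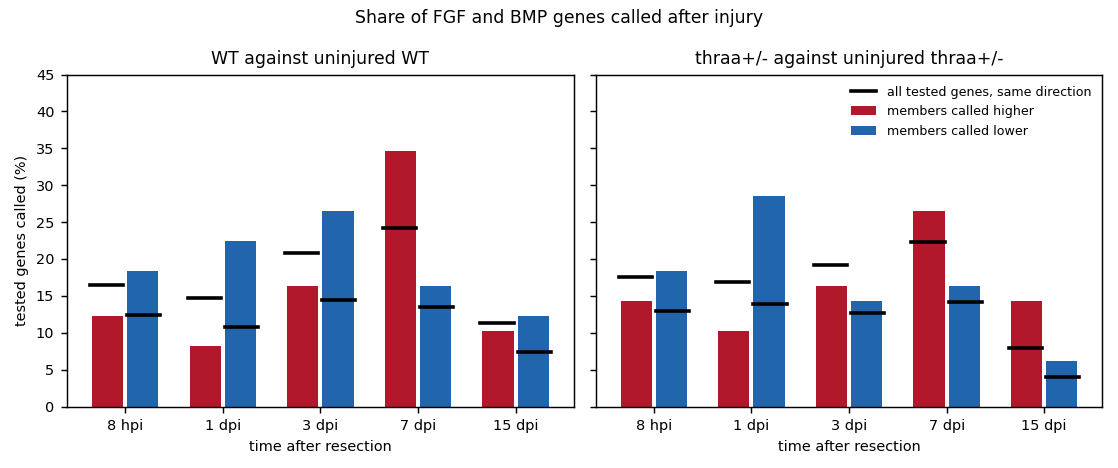
Percentage of the 49 tested members called higher (red bars) and lower (blue bars) than uninjured apex at each time, for WT (left) and thraa+/- (right); black lines give the percentage of all 17837 tested genes called in that direction. The lower bars stood above the black line at all 5 times in both genotypes, and the higher bars did so at 7 dpi in both and at 15 dpi in thraa+/-.

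Among the FGF ligands, fgf3 and fgf17 had the highest counts, and each behaved differently in the 2 genotypes. The secreted ligand fgf3 was at 24.6 and 24.4 CPM in the uninjured WT apex. It stood at 21.5 and 20.2 CPM at 8 hpi, 7.44 and 11.1 at 1 dpi, then 5.76 and 5 at 3 dpi, 3.63 and 6.88 at 7 dpi and then 14.4 and 13.1 at 15 dpi. On the TMM scale all injured WT libraries were below both uninjured ones, lowest at 3 and 7 dpi. At 8 hpi this order depends on the scaling, with 309 and 286 raw counts against 246 and 235 uninjured. The mean at 8 hpi was 11.64 TPM, against 9.345 TPM uninjured. fgf3 fell at 1 dpi (log2 fold change -1.40, SE 0.17), 3 dpi (-2.19, SE 0.18, adjusted p = 6.79e-14) and 7 dpi (-2.23, SE 0.18, adjusted p = 5.35e-14). The 1 dpi call was lost with total counts (-0.81). In thraa+/- it started at 28.2 and 24.9 CPM and stood at 13 and 14.8 at 3 dpi and 12.8 and 11.7 at 7 dpi, a shallower course that was called lower only at 7 dpi (-1.11, SE 0.16), a call lost with total counts (-0.21) and with a filter of 10 counts in every library (-0.93).

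fgf17, a ligand of the same subfamily as fgf8, was not called against the uninjured apex at any time in WT, where its 12 libraries lay between 8.37 and 29.3 CPM. The thraa+/- level was 52.0 and 48.4 CPM in the uninjured apex, then 34.6 and 25.8 at 8 hpi, 13.5 and 14.6 at 1 dpi, then 28.5 and 28.3 at 3 dpi, 11.8 and 11.7 at 7 dpi and then 31.9 and 33.7 at 15 dpi. Both uninjured libraries were above all injured ones, and the 2 low points at 1 and 7 dpi were separated by a higher value at 3 dpi. It fell at 1 dpi (log2 fold change -1.84, SE 0.14, adjusted p = 1.6e-15) and 7 dpi (-2.10, SE 0.14, adjusted p = 2.24e-17).

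The remaining tested FGF ligands had low counts. fgf1b, a form of acidic FGF, was at 5.6 and 2.91 CPM in the uninjured WT apex and at 0.736 to 1.62 CPM in all 10 injured libraries, and was called lower at every time. The call at 7 dpi (log2 fold change -2.30, SE 0.50, adjusted p = 0.00013) held in every fit on counts that tested the gene. The 3 dpi call was lost with total counts (-1.05). Without WT uninjured replicate 1 the others were lost, at -1.16 (8 hpi and 1 dpi), -1.35 (3 dpi) and -1.26 (15 dpi); the 15 dpi call was also lost without WT 15 dpi replicate 1 (-1.39). The 2 genes named fgf18 were both lower in WT soon after injury. ENSDARG00000043962 had 16 and 11 counts uninjured and 3 in each library at 8 hpi, a ratio of 6.55 (95% exact interval 2.65 to 19.4, counting error only). ENSDARG00000088048 went from 5.30 and 6.24 CPM to 0.979 and 1.1 CPM at 1 dpi (log2 fold change -2.46, SE 0.42, adjusted p = 3.08e-06). On the TPM scale this second gene cannot be read: 1 WT library at 7 dpi had 23.4 TPM and its partner 0.63 TPM, though their levels were 2.73 and 2.8 CPM. fgf2, basic FGF, was at 0 counts in both uninjured WT libraries and at 7 and 8 counts at 7 dpi. This was 2.71-fold higher against 3 counts over the group. In thraa+/- it went from 2 and 0 counts to 27 and 22, a ratio of 12.6 (interval 3.30 to 107). Both calls depended on single libraries, here by fitted log2 values that are no bounds. The WT call was lost without either uninjured replicate (5.75 each) or without WT 7 dpi replicate 2 (5.56), and the thraa+/- call without its uninjured replicate 2 (2.60). fgf24 went from 1 count in each uninjured WT library to 20 and 9 at 7 dpi, a ratio of 7.86 (interval 1.99 to 68.0), and lost its call without WT uninjured replicate 1 (2.81) or 2 (2.87) or WT 7 dpi replicate 1 (2.28).

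**Figure D2:**
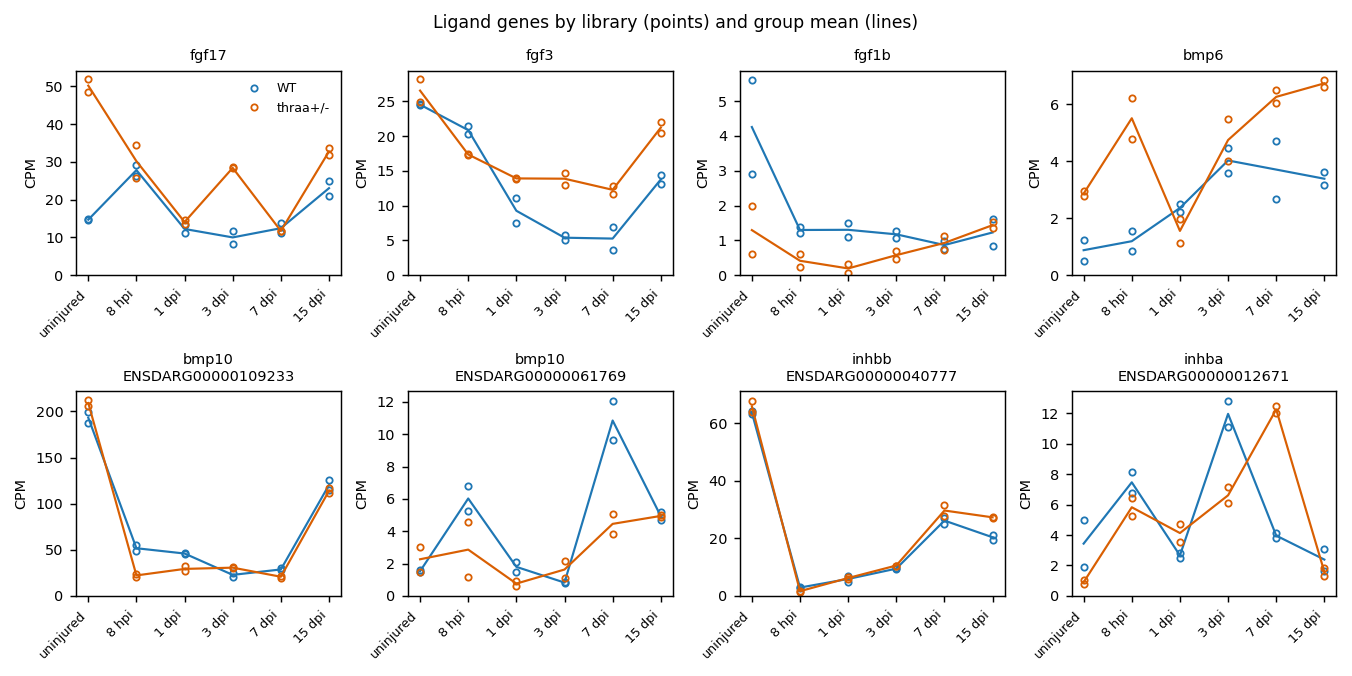
CPM of 8 ligand genes against time (categories, not to scale), 1 point per library, with lines through the group means, in WT (blue) and thraa+/- (orange). bmp10 ENSDARG00000109233 and inhbb ENSDARG00000040777 drop from about 200 and 65 CPM in both genotypes, while fgf17, fgf3, bmp6 and inhba ENSDARG00000012671 follow courses that differ between them.

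Of the 8 FGF receptors, 5 were called higher (24.2% of all genes) and 1 lower (13.6%) in WT at 7 dpi, with a median log2 fold change of 1.57 over the receptors against 0.22 over all genes. In thraa+/- 3 were called higher at 7 dpi (22.4% of all genes) and none lower (14.1%), with a median of 0.41 against 0.14. The receptors fgfr2 and fgfr4 were not among them. fgfr2 ranged from 9.38 to 31.2 CPM and fgfr4 from 11.9 to 26.3 CPM over the 24 libraries. Neither was called in any comparison with TMM, but their course depends on the scaling. Mean fgfr2 at 7 dpi was 7.62 TPM against 2.9 uninjured in WT, and 6.195 against 2.145 in thraa+/-. Mean fgfr4 at 7 dpi was 5.375 TPM against 3.57 uninjured in WT, and 5.24 against 3.18 in thraa+/-. Those called higher in WT were both genes named fgfr1, fgfr1bl, fgfr3 and fgfrl1b, and the first 3 of these were the ones called in thraa+/-. The fgfrl1b call was lost without WT uninjured replicate 1 (1.47) or 2 (2.51) or WT 7 dpi replicate 2 (1.68) and with DESeq2 (1.92). fgfr1bl was at 1.3 and 0.624 CPM in the uninjured WT apex and at 7.14 and 7.72 CPM at 3 dpi and 6.10 and 5.25 CPM at 7 dpi. It rose at both times (log2 fold change 2.93, SE 0.37, and 2.54, SE 0.38), with no overlap between groups, as for 78.8% and 80.4% of all genes. thraa+/- hearts went from 0.814 and 0.988 CPM to 5.98 and 9.17 CPM at 7 dpi (3.06, SE 0.37, adjusted p = 1.55e-09).

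fgfr1 ENSDARG00000011190 was almost absent before injury and in WT was high at 2 separate times. It had 1 and 0 counts in the uninjured WT apex, 51 and 32 at 8 hpi, 1 and 2 at 1 dpi, then 3 and 8 at 3 dpi, 52 and 40 at 7 dpi and then 3 and 5 at 15 dpi. Both the 8 hpi and the 7 dpi groups were far above the rest. The ratio to uninjured was 57.1 (interval 9.96 to 2280) at 8 hpi and 49.9 (interval 8.73 to 1990) at 7 dpi. In thraa+/- both uninjured libraries were at 0, with 44 and 9 counts at 8 hpi, then 17 and 11 at 3 dpi and 46 and 47 at 7 dpi. These were 12.4-, 4.84- and 15.9-fold higher against 3 counts over the group. At 1 dpi 1 thraa+/- library had 10 counts and the other 0, and without the first the value was 0 and the call was lost, as it was without either uninjured library. The other gene, fgfr1 ENSDARG00000011027, was present throughout. It went from 1.90 and 2.29 CPM to 6.26 and 6.44 CPM at 8 hpi in WT (log2 fold change 1.60, SE 0.35) and from 1.22 and 0.593 to 4.35 and 5.30 CPM in thraa+/- (2.40, SE 0.42, adjusted p = 4.92e-06), and in thraa+/- it was called higher at all 5 times. The 15 dpi call was lost without thraa+/- uninjured replicate 2 (1.14) or 15 dpi replicate 1 (1.12).

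fgfrl1, an FGF receptor that lacks the kinase domain, was the FGF receptor with the highest count and was called lower in WT at 3 and 7 dpi. It was at 120 and 114 CPM uninjured, 142 and 142 at 8 hpi, then 32.7 and 29.5 at 3 dpi and 46.2 and 43.7 at 7 dpi. The log2 change at 3 dpi was -1.91 (SE 0.08, adjusted p = 2e-24), and the one at 7 dpi was lost with total counts (-0.53). The thraa+/- uninjured level was 66.0 and 65.0 CPM and no time was called. fgfr3 was at 3 and 4 counts in the uninjured WT apex and at 12 to 29 counts in all 10 injured WT libraries. Its 5 calls in WT (log2 fold change 1.48 to 1.91) were all lost without WT uninjured replicate 1 (1.27 to 1.66), and also without WT uninjured replicate 2 at 1 dpi (1.74), and without injured replicate 2 at 8 hpi (1.62), 1 dpi (1.12) and 3 dpi (1.56) or replicate 1 at 15 dpi (1.63).

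**Figure D3:**
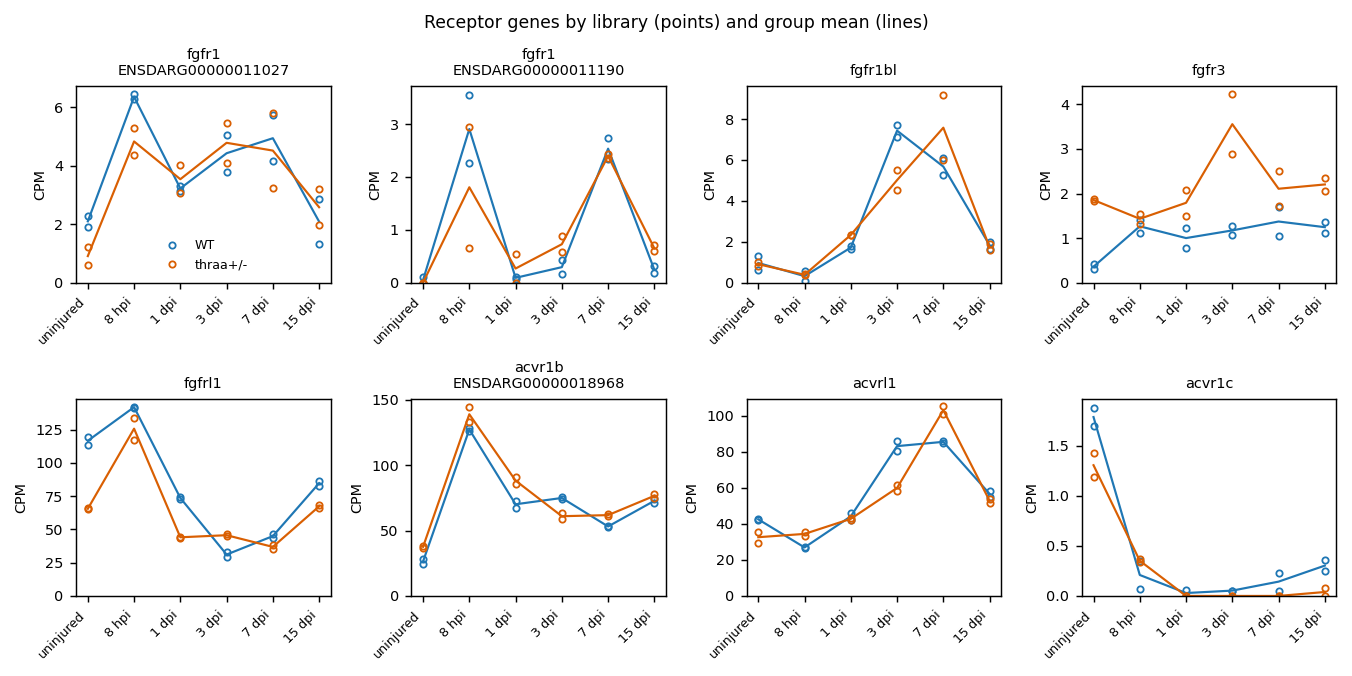
CPM of 8 receptor genes against time (categories, not to scale), 1 point per library, with lines through the group means, in WT (blue) and thraa+/- (orange). fgfr1 ENSDARG00000011190 is high at 8 hpi and 7 dpi in WT, acvr1b ENSDARG00000018968 peaks at 8 hpi between 126 and 145 CPM, and acvr1c is near 0 from 1 to 7 dpi.

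Among the BMP ligands, bmp10 ENSDARG00000109233, a ligand made in the heart itself and bound by acvrl1, showed a deep and sustained fall. It was at 199 and 187 CPM in the uninjured WT apex, then at 54.8 and 48.6 CPM at 8 hpi, 46.1 and 45.9 at 1 dpi, then 20.9 and 24.7 at 3 dpi, 27.6 and 29.8 at 7 dpi and then 126 and 114 at 15 dpi. The thraa+/- libraries went from 206 and 212 CPM to 24 and 20.5 already at 8 hpi, then 30.2 and 31.1 at 3 dpi, 19.5 and 22.1 at 7 dpi and then 116 and 111 at 15 dpi. Every injured library was below every uninjured one, and both genotypes were still short of the uninjured level at 15 dpi, though not past the called fold. The log2 fold change was -3.08 (SE 0.09, adjusted p = 2.57e-29) at 3 dpi in WT and -3.33 (SE 0.09, adjusted p = 2.43e-30) at 7 dpi in thraa+/-. The summed cardiomyocyte markers also stood lowest at 3 and 7 dpi, and at 69750 to 70470 CPM in WT at 15 dpi; their part in the change was not tested.

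The second gene under that symbol followed a different course in WT, higher than uninjured at 3 times but lower at 3 dpi. bmp10 ENSDARG00000061769 was at 1.60 and 1.46 CPM uninjured, 6.82 and 5.24 at 8 hpi, then 0.800 and 0.852 at 3 dpi, 9.63 and 12.1 at 7 dpi and then 4.70 and 5.16 at 15 dpi. It was higher at 8 hpi, 7 dpi and 15 dpi without overlap, where 74.7%, 80.4% and 69.5% of all genes did not overlap either. It was called at all 3 (log2 fold change 2.82, SE 0.40, adjusted p = 5.04e-07 at 7 dpi). In thraa+/- at 7 dpi it was at 3.83 and 5.08 CPM against 3.05 and 1.48 CPM uninjured and was not called. There it was called lower at 1 dpi, at 0.588 and 0.938 CPM (-1.58), and higher at 15 dpi, at 5.01 and 4.89 CPM (1.13). The first call was lost without thraa+/- uninjured replicate 1 (-0.90) or 1 dpi replicate 1 (-1.26) and with total counts (-0.97), and the second without thraa+/- uninjured replicate 2 (0.73) or either 15 dpi replicate (1.11 and 1.15).

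The other BMP ligands had few counts. bmp4 was at 3.90 and 3.85 CPM in the uninjured WT apex, 1.32 and 1.42 at 8 hpi, 1.70 and 0.812 at 1 dpi, then 1.49 and 0.852 at 3 dpi and 3.21 and 3.32 at 7 dpi. At 15 dpi it stood at 2.2 and 2.24 CPM. On the TMM scale all injured WT libraries were thus below both uninjured ones, those of 7 dpi by the least. At 7 dpi the direction depends on the scaling, with 61 and 57 raw counts against 39 and 37 uninjured. The mean at 7 dpi was 1.24 TPM, against 0.885 TPM uninjured. bmp4 was called lower at the first 3 times in both genotypes. The calls in WT at 8 hpi and 3 dpi were lost with total counts (-0.98 and -0.92), as was the one at 3 dpi in thraa+/- (-0.37), which was also lost without thraa+/- uninjured replicate 1 (-0.99) or 3 dpi replicate 1 (-0.78). bmp6, known in liver for the control of hepcidin, was called higher from 1 dpi onwards in WT, from 0.500 and 1.25 CPM to 2.22 and 2.49 at 1 dpi, then 3.57 and 4.47 at 3 dpi, 2.68 and 4.72 at 7 dpi and then 3.15 and 3.61 at 15 dpi (log2 fold change 2.20, SE 0.40, adjusted p = 8.63e-06 at 3 dpi). The 1 dpi call was lost without WT uninjured replicate 1 (0.92). It rose in thraa+/- from 2.95 and 2.77 CPM to 6.60 and 6.86 CPM at 15 dpi (1.23, SE 0.31). bmp3, a BMP that in mammals opposes osteogenic BMPs, had 4 and 0 counts uninjured in WT and 44 and 46 at 7 dpi (log2 fold change 3.57, SE 0.79, adjusted p = 0.000154). Its size rests on the uninjured libraries, at 8.31 without WT uninjured replicate 1, which leaves a group at 0 and so gives no bound, and at 2.60 without replicate 2, and it stayed called in both. bmp2 ENSDARG00000041430 was at 0 in both uninjured WT libraries and at 10 and 15 counts at 7 dpi. This was 4.52-fold higher against 3 counts over the group. bmp16, a fish ligand of the bmp2 and bmp4 branch, varied little, between 48.7 and 104 CPM in all 24 libraries. It was called once, in thraa+/- at 3 dpi (-1.07), a call lost with total counts (-0.30) and with the filter of 10 counts in every library (-0.94).

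The activin subunits contained the largest fall of any well-counted member. Dimers of the subunits made by inhba and inhbb form activins, which signal through acvr1b and the type II activin receptors. inhbb ENSDARG00000040777 was at 63.0 and 64.3 CPM in the uninjured WT apex and at 2.99 and 2.83 CPM at 8 hpi. It stood at 6.86 and 4.93 CPM at 1 dpi, then 9.28 and 9.69 at 3 dpi, 25.1 and 27.2 at 7 dpi and then 19.6 and 21.1 at 15 dpi. In thraa+/- the same course ran from 67.7 and 64.0 CPM to 1.54 and 1.77 at 8 hpi, 5.88 and 6.56 at 1 dpi, then 10.6 and 10.6 at 3 dpi, 31.7 and 27.6 at 7 dpi and then 27.2 and 27.4 at 15 dpi. All injured libraries lay below all uninjured ones, and the level at 8 hpi was below that of every later time. The log2 fold change at 8 hpi was -4.45 (SE 0.15, adjusted p = 4.15e-27) in WT and -5.31 (SE 0.16, adjusted p = 1.03e-28) in thraa+/-, and the gene was called at every time in both. With total counts it was no longer called at 7 dpi in WT (-0.43) and at 7 and 15 dpi in thraa+/- (-0.25 and -0.85); with the filter of 10 counts in every library the 7 dpi call in thraa+/- was lost as well (-0.96). Summed cardiomyocyte markers were also lower at 8 hpi, at 61330 to 63840 CPM in WT against 128200 to 131500 CPM uninjured, and their part in the change was not tested.

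inhba ENSDARG00000012671 was instead called higher at some times after injury, and its highest point came at different times in the 2 genotypes. In WT it was at 5 and 1.87 CPM uninjured, 8.14 and 6.79 at 8 hpi, 2.48 and 2.84 at 1 dpi, then 11.1 and 12.8 at 3 dpi and 3.79 and 4.14 at 7 dpi. The WT group means at 1 and 15 dpi, 2.66 and 2.39 CPM, were below the uninjured mean of 3.44 CPM. In thraa+/- it was at 1.02 and 0.790 CPM uninjured, 6.43 and 5.22 at 8 hpi, 4.70 and 3.56 at 1 dpi, then 6.08 and 7.14 at 3 dpi, 12 and 12.5 at 7 dpi and then 1.83 and 1.34 at 15 dpi. The highest libraries were those of 3 dpi in WT and of 7 dpi in thraa+/-. It rose at 3 dpi in WT (log2 fold change 1.79, SE 0.27, adjusted p = 2.55e-07) and at 7 dpi in thraa+/- (3.75, SE 0.34, adjusted p = 9.62e-13). The WT call at 8 hpi was lost without WT uninjured replicate 2 (0.59) or 8 hpi replicate 1 (0.98). The second gene, inhba ENSDARG00000024759, fell at 8 hpi from 3.90 and 2.71 to 0.417 and 1.27 CPM in WT (-1.96, SE 0.43) and from 3.56 and 4.64 to 0.736 and 0.809 CPM in thraa+/- (-2.40, SE 0.43).

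The GDF ligands were nearly silent. gdf3, a nodal partner in the embryo, lay between 0.417 and 2.54 CPM in all 24 libraries, and gdf7 had at most 20 counts. In thraa+/- gdf7 was at 0 in both uninjured libraries and at 15 and 12 counts at 3 dpi and 20 and 20 at 7 dpi. These were 4.67- and 6.84-fold higher against 3 counts over the group, while WT had 2 and 5 counts uninjured and 8 and 11 at 7 dpi.

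Of the BMP and activin receptors, the type I activin receptor acvr1b ENSDARG00000018968 was called higher at all 5 times in WT. In WT it was at 24.5 and 28.3 CPM uninjured, 128 and 126 at 8 hpi, 72.7 and 67.5 at 1 dpi, then 74.0 and 75.8 at 3 dpi, 52.4 and 53.8 at 7 dpi and then 74.2 and 71.4 at 15 dpi. In thraa+/- it was at 37.0 and 38.1 CPM uninjured, 145 and 133 at 8 hpi and 58.7 to 91.1 CPM at the later times. Every injured library was above every uninjured one, and the 8 hpi libraries were the highest, at the time when inhbb was lowest. The log2 fold change at 8 hpi was 2.27 (SE 0.08, adjusted p = 9.5e-26) in WT and 1.89 (SE 0.08, adjusted p = 6.88e-24) in thraa+/-. The WT call at 7 dpi sat at the cutoff (1.01) and was lost without WT uninjured replicate 1 (0.88) or 7 dpi replicate 2 (0.99), with DESeq2 (0.97) and in the fit of only the compared groups (0.96).

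acvrl1, the endothelial type I receptor that binds bmp10, was at 42.1 and 42.9 CPM in the uninjured WT apex, 27.3 and 26.5 at 8 hpi, then 80.5 and 85.7 at 3 dpi and 84.9 and 86.1 at 7 dpi. The thraa+/- libraries were at 35.7 and 29.4 CPM uninjured, then 58.2 and 61.7 at 3 dpi and 105 and 101 at 7 dpi. It was higher than uninjured at 3 and 7 dpi without overlap, where 77.2% to 80.4% of all genes did not overlap either. It rose at 7 dpi in thraa+/- (log2 fold change 1.66, SE 0.09, adjusted p = 5.63e-21). In WT the change at 7 dpi, 1.01, was at the cutoff and was lost without WT uninjured replicate 1 (0.96) or 7 dpi replicate 2 (1.00), with DESeq2 (0.97) and in the fit of only the compared groups (0.96). The summed markers of endothelium and endocardium were at 1027 to 1032 CPM in the uninjured WT apex and at 646 to 662 CPM at 7 dpi. In thraa+/- they were at 1045 to 1078 CPM uninjured and at 686 to 692 CPM at 7 dpi. Their part in the acvrl1 change was not tested. acvr1c, the type I receptor also used by nodal-like ligands, was lost early. It had 17 and 18 counts in the uninjured WT apex and 0 and 1 at 1 dpi, a ratio of 58.1 (interval 9.77 to 2360). In thraa+/- it had 14 and 12 counts uninjured and 0 in all 6 libraries at 1, 3 and 7 dpi. These were 15.1-, 16.7- and 16.9-fold lower against 3 counts over the group.

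Several other BMP and activin receptors were not called. Of the type I receptors, bmpr1a ENSDARG00000019728 stayed between 20.6 and 51.2 CPM, bmpr1a ENSDARG00000105045 between 9.60 and 23.8 CPM, and acvr1l, the fish relative of ACVR1, between 23.6 and 38.2 CPM. The type II receptor acvr2a was between 15.7 and 32.2 CPM. None of these 4 was called in any comparison with TMM. In TPM their WT means were higher at 7 dpi than uninjured. In the same order these were 10.34 against 6.755, 5.84 against 2.17, 10.52 against 5.635 and 5.45 against 4.01 TPM. bmpr1ba fell at 3 dpi in WT from 3.90 and 5.51 to 1.44 and 1.01 CPM (log2 fold change -1.93, SE 0.37, adjusted p = 1.88e-05). It was also called lower at 15 dpi in WT (-1.33) and at 3 and 15 dpi in thraa+/- (-1.41 and -1.22), and with total counts these 3 calls were lost (-0.83, -0.64 and -0.81). Leaving out 1 library also ended both 15 dpi calls, in WT without uninjured replicate 2 (-1.06) or 15 dpi replicate 1 (-1.02), and in thraa+/- without uninjured replicate 1 (-1.15) or 2 (-1.23) or 15 dpi replicate 2 (-0.87).

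The 2 genes named bmpr2, a type II receptor for BMPs, had few counts in the apex and were called. bmpr2 ENSDARG00000011941 went from 5 counts in each uninjured WT library to 35 and 28 at 7 dpi (log2 fold change 1.75, SE 0.60, adjusted p = 0.0112) and from 3 and 6 to 21 and 43 in thraa+/- (1.85, SE 0.61). The WT call was lost without uninjured replicate 1 (1.69) or 2 (1.76), and the thraa+/- call without uninjured replicate 1 (1.47) or 7 dpi replicate 2 (1.24). bmpr2 ENSDARG00000020057 had 1 and 3 counts in the uninjured thraa+/- apex and 30 and 15 at 8 hpi, a ratio of 7.87 (interval 2.87 to 30.1). This call held in every fit on counts that tested the gene. At 7 dpi it had 20 and 18 counts, a ratio of 4.87 with a lower bound of 1.75, and the call was lost without thraa+/- uninjured replicate 1 (fitted log2 value 1.70). In WT it was called lower at 3 dpi, at 6 and 11 against 13 and 12 counts (-1.48), a call lost with total counts (-0.68), with DESeq2 (-1.57), without a filter (-1.49), and without WT uninjured replicate 1 (-1.49) or 2 (-1.54) or 3 dpi replicate 1 (-1.11).

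The genes that share only the name included some of the clearest responses. bmp1 is no BMP but a secreted metalloprotease that trims procollagen and cleaves the BMP antagonist chordin. bmp1 ENSDARG00000028071 was at 51.8 and 51.8 CPM in the uninjured WT apex, 20.0 and 22.2 at 1 dpi, then 65.8 and 68.7 at 3 dpi and 88.2 and 85.0 at 7 dpi. Levels in thraa+/- started lower, at 16.2 and 12.3 CPM, and stood at 36.4 and 41.1 at 8 hpi, then 45.6 and 45.8 at 3 dpi and 79.5 and 81.1 at 7 dpi, so that the 2 genotypes were close at 7 dpi and far apart before injury. It rose in thraa+/- at 7 dpi (log2 fold change 2.49, SE 0.10, adjusted p = 3.98e-24). bmp1 ENSDARG00000028053 went from 4 and 3 counts to 40 and 24 at 7 dpi in WT (2.28, SE 0.58) and from 1 and 3 to 103 and 131 in thraa+/-, a ratio of 30 (interval 11.6 to 111). Fibroblast markers were at 13690 to 13720 CPM in WT and 15250 to 15310 CPM in thraa+/- at 7 dpi, against 1435 to 1484 and 830 to 875 CPM uninjured, and their part in the bmp1 changes was not tested. bmp2k, a kinase first found as a BMP2-induced gene, rose at 7 dpi in both genotypes (1.28, SE 0.19, and 1.62, SE 0.19). fgf14, an intracellular partner of sodium channels, fell at 1 dpi from 9.70 and 10.3 to 3.13 and 3.42 CPM in WT (-1.60, SE 0.30) and from 9.06 and 9.49 to 2.40 and 2.94 CPM in thraa+/- (-1.80, SE 0.31).

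Genes downstream of the ligands were counted from lists of pathway genes. Of 18 tested feedback inhibitors and targets of FGF signalling, 3 were called higher (16.5% of all genes) and 4 lower (12.5%) at 8 hpi in WT, with a median log2 fold change of -0.07 against 0.09 over all genes, and 6 higher (24.2%) and none lower (13.6%) at 7 dpi (0.15 against 0.22). The feedback inhibitor spry4 was at 179 and 183 CPM in the uninjured WT apex and 59.3 and 57.9 CPM at 8 hpi, and at 344 and 350 against 77.1 and 60.9 CPM in thraa+/-; it fell at 8 hpi in both. The FGF target etv5b fell at 8 hpi too, from 19.3 and 21.6 to 5.98 and 7.78 CPM in WT and from 25.4 and 22.3 to 8.84 and 7.80 CPM in thraa+/-. Against these 2, the list had 3 others called higher in WT at 8 hpi, and no common fall of the list was seen. Of 16 tested BMP targets, 4 were called higher and 2 lower at 8 hpi in WT, with a median of 0.12 against 0.09, and 2 higher and 1 lower at 7 dpi, with a median of 0.25 against 0.22, beside the same shares of all genes. The list with the most members called higher at 7 dpi was that of extracellular BMP and activin antagonists and processing enzymes, 8 of 21 in WT (24.2% of all genes) with 1 lower (13.6%) and 10 of 21 in thraa+/- (22.4%) with none lower (14.1%), with medians of 0.91 and 1.17 against 0.22 and 0.14 over all genes. It included the BMP antagonist chrd, which went from 0.200 and 0 CPM to 4.63 and 3.09 CPM in WT and from 0.204 and 0 to 4.50 and 2.44 CPM in thraa+/-.

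The next question was whether thraa+/- hearts differed from WT at the same time. At 1 or more of the 6 times 19 of 49 members were called (38.8%, against 30.4% of all genes), 10 higher in thraa+/-, 11 lower and 2 of these in both directions. In the uninjured apex 4 were higher (5.68% of all genes) and 6 lower (5.79%), and at 8 hpi 2 were higher (6.88%) and 6 lower (3.67%). The later times had 1 higher (4.9%) and 1 lower (2.69%) at 1 dpi, 4 higher (5.23%) and 0 lower (3.34%) at 3 dpi, 3 higher (2.94%) and 2 lower (3.31%) at 7 dpi, and 2 higher (4.12%) and 0 lower (3.74%) at 15 dpi. In either direction 11.5%, 10.5%, 7.59%, 8.57%, 6.25% and 7.85% of all genes were called at the 6 times, from uninjured to 15 dpi. FGF and BMP ligands made up 11 of the 19, and of the 11 tested BMP and activin receptors only bmpr2 ENSDARG00000020057 was called, lower in the uninjured apex (1 and 3 counts against 13 and 12, a ratio of 6.36, interval 2.20 to 25.1), a call lost without thraa+/- uninjured replicate 1 (-2.13).

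Before injury fgf17 was higher in thraa+/-, at 52.0 and 48.4 against 14.6 and 14.8 CPM (log2 fold change 1.77, SE 0.14, adjusted p = 2.01e-13), and again at 3 dpi, at 28.5 and 28.3 against 8.37 and 11.6 CPM (1.51, SE 0.14, adjusted p = 8.46e-12). bmp1 ENSDARG00000028071 was lower before injury, at 16.2 and 12.3 against 51.8 and 51.8 CPM (-1.86, SE 0.11, adjusted p = 9.01e-18). fgfr3 was higher before injury (18 and 19 counts against 3 and 4, log2 fold change 2.35, SE 0.58) and at 3 dpi (82 and 55 counts against 20 and 24, 1.59, SE 0.37, adjusted p = 0.000821). fgf17 and bmp1 ENSDARG00000028071 kept these calls in every fit on counts, and fgfr3 in every one that tested it. The fgfr3 call before injury was lost in 2 fits on TPM, and the one at 3 dpi in 1. bmp6 was higher before injury (2.95 and 2.77 against 0.500 and 1.25 CPM), a call lost without WT uninjured replicate 1 (1.13), and at 8 hpi (6.22 and 4.78 against 1.53 and 0.849 CPM, 2.20, SE 0.34, adjusted p = 1.52e-06). The marker sums of the 2 uninjured groups differed as well. Smooth muscle markers were at 245 to 248 CPM in thraa+/- against 545 to 553 in WT, fibroblast markers at 830 to 875 against 1435 to 1484, skin epithelium markers at 145 to 163 against 498 to 516 and cardiomyocyte markers at 108000 to 109200 against 128200 to 131500. Liver markers, of which up to 7 of 9 were at 0, were at 26 to 29 against 270 to 278 CPM, erythrocyte markers at 4749 to 4777 against 7224 to 7333, leukocyte markers at 136 to 146 against 203 to 216 and epicardium markers at 583 to 622 against 772 to 784. Endothelium and endocardium markers were at 1045 to 1078 against 1027 to 1032, and fast skeletal muscle markers at 7470 to 7576 against 6655 to 6954. Some of these sums rested almost wholly on a single gene. For liver this was tfa (group means 272.6 CPM in WT and 24.42 in thraa+/-), with the other liver markers near 0. For skin epithelium it was krt4 (504.1 and 150.7), and for fast skeletal muscle ckma (6764 and 7480). The part of the marker sums in the genotype differences was not tested.

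At 8 hpi bmp10 ENSDARG00000109233 was lower in thraa+/-, at 24 and 20.5 against 54.8 and 48.6 CPM (-1.21, SE 0.10, adjusted p = 1.04e-13). Leukocyte markers at this time were at 999 to 1137 CPM in thraa+/- and 324 to 340 in WT. Cardiomyocyte markers were at 48250 to 62360 CPM in thraa+/- and 61330 to 63840 in WT, so that the groups overlapped. At 3 dpi fgf3 was higher in thraa+/-, at 13 and 14.8 against 5.76 and 5 CPM (1.36, SE 0.18), as at 7 dpi, at 12.8 and 11.7 against 3.63 and 6.88 CPM (1.24, SE 0.18), where the call was lost without WT 7 dpi replicate 1 (0.84). bmp2 ENSDARG00000013409 had 12 and 13 counts in thraa+/- at 3 dpi and 0 in both WT libraries. This was 8.13-fold higher against 3 counts over the group. The gene was also called higher before injury, at 14 and 15 counts against 0 and 1, a ratio of 28.5 (interval 4.73 to 1160). It was called at 1 dpi as well, with 4 and 7 counts against 0 in both WT libraries. The calls before injury and at 1 dpi were lost in 1 and 3 alternatives on counts. All 4 members called at 3 dpi (fgf17, fgf3, fgfr3 and bmp2 ENSDARG00000013409) were higher in thraa+/-. All but fgf3 were also called higher before injury. Skin epithelium markers at 3 dpi stood at 4013 to 4114 CPM in thraa+/- against 477 to 478 CPM in WT. None of the 8 markers was at 0 in thraa+/-, but most of the sum was krt5 (group means 3396 CPM in thraa+/- and 12.76 in WT). The part of the markers in these differences was not tested. At 7 dpi inhba ENSDARG00000012671 was higher in thraa+/-, at 12 and 12.5 against 3.79 and 4.14 CPM (1.63, SE 0.24, adjusted p = 1.08e-06), and bmp1 ENSDARG00000028053 was higher at 103 and 131 against 40 and 24 counts (1.77, SE 0.37, adjusted p = 0.00033).

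**Figure D4:**
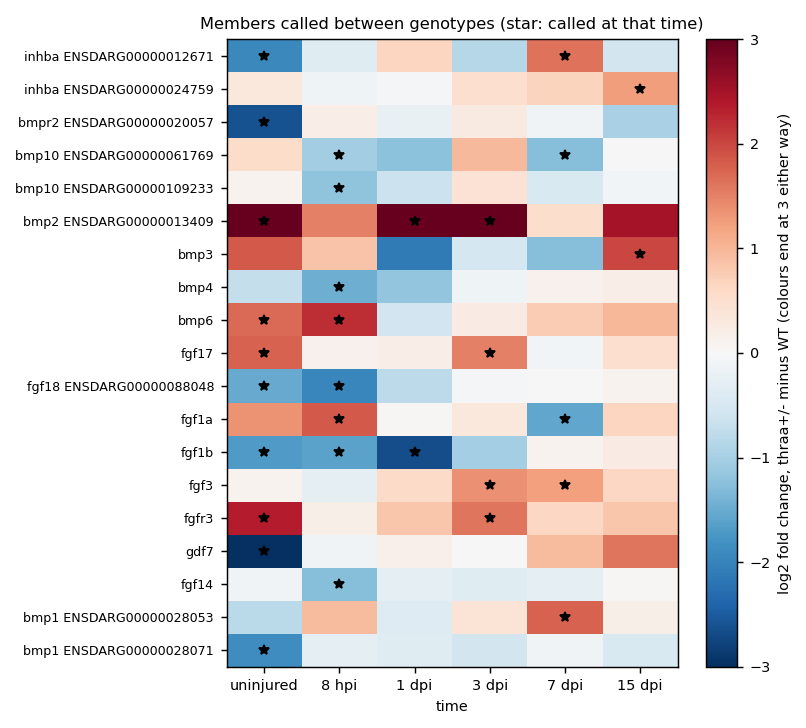
Log2 fold change of thraa+/- against WT (colour, red higher in thraa+/-, blue lower; colours end at 3 in either direction) for the 19 members called at 1 or more times, by time; stars mark the calls. 10 calls fall in the uninjured apex and 8 at 8 hpi, and the 4 at 3 dpi are all red.

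Whether the response to injury itself differed was tested as the change from uninjured in thraa+/- minus that in WT. 15 of 49 members were called at 1 or more times (30.6%, against 27.4% of all genes), 7 with a more positive and 8 with a more negative response in thraa+/-. By time there were 3 more positive (8.11% of all genes) and 4 more negative (5.94%) at 8 hpi, 2 (5.81%) and 3 (5.13%) at 1 dpi, 4 more positive (4.67%) and 1 more negative (4.07%) at 3 dpi, 5 more positive (6.39%) and 4 more negative (6.28%) at 7 dpi, and 3 more positive (4.67%) and 1 more negative (4.56%) at 15 dpi. In either direction 14.1%, 10.9%, 8.74%, 12.7% and 9.23% of all genes were called, from 8 hpi to 15 dpi. The differences of a gene at several times share the same 4 uninjured libraries. For bmp1 ENSDARG00000028071 all 5 were called, from 1.31 (SE 0.14) at 3 dpi to 1.75 (SE 0.14, adjusted p = 1.11e-13) at 7 dpi, beside its low uninjured level in thraa+/-. For fgf17, high before injury in thraa+/-, 4 were called, from -1.27 (SE 0.20) at 15 dpi to -1.86 (SE 0.21, adjusted p = 1.25e-09) at 7 dpi. The response of inhba ENSDARG00000012671 was larger in thraa+/- at 1 dpi (2.57, SE 0.52) and at 7 dpi (3.56, SE 0.48, adjusted p = 1.45e-07). Its uninjured level was called lower in thraa+/- (group means 0.904 against 3.44 CPM), a call lost in 1 alternative on counts. fgf3 fell less in thraa+/- at 3 dpi (1.25, SE 0.24) and 7 dpi (1.12, SE 0.24; 0.72 and not called without WT 7 dpi replicate 1), and fgfrl1 fell less at 3 dpi (1.39, SE 0.11, adjusted p = 1.83e-13). The early fall of bmp10 ENSDARG00000109233 was deeper in thraa+/- at 8 hpi (-1.33, SE 0.13, adjusted p = 1.86e-11). The response of inhbb ENSDARG00000040777, the well-counted member with the largest fall, was not called as different at any time. A difference in response below the log2 cutoff of 1 is not called. The inhbb means at 8 hpi were 2.91 CPM in WT and 1.653 CPM in thraa+/-, from 63.65 and 65.86 CPM uninjured.

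In uninjured whole hearts the question was whether loss of both thraa copies changed these genes. 10 of 53 tested members were called (18.9%, against 19.2% of all genes), 4 higher (9.66% of all genes) and 6 lower (9.54%) in thraa-/-. With total counts, which moves the median of all genes by -0.26, the numbers were 2 higher and 10 lower. The ligand bmp10 ENSDARG00000061769 was at 46.2 and 43.5 CPM in WT and 26.8 and 26.4 CPM in thraa-/- (log2 fold change -0.76, SE 0.12, adjusted p = 0.00233), and its call held in every fit on counts. bmp16 was at 51.1 and 51.0 CPM in WT and 81.7 and 83.7 CPM in thraa-/- (0.70, SE 0.10, adjusted p = 0.00195), a call lost with total counts (0.44). inhbb ENSDARG00000040777 was lower, at 21.3 and 17.3 against 39.8 and 31.9 CPM (-0.89, SE 0.16), and lost its call without thraa-/- replicate 2 (-0.74). inhba ENSDARG00000024759 was higher, at 15.9 and 20.8 against 10.8 and 7.32 CPM (1.01, SE 0.23), and fgf13 ENSDARG00000035056, an intracellular FGF homologous factor, was higher, at 5.52 and 5.05 against 2.06 and 1.93 CPM (1.40, SE 0.27). Without thraa-/- replicate 1 or 2 both lost their calls, at 1.2 and 0.82 for inhba and at 1.34 and 1.47 for fgf13. In each of these 5 genes the 2 WT libraries and the 2 thraa-/- libraries did not overlap, as for 65.2% of all genes.

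The remaining calls in whole hearts had low counts, and each was lost without either thraa-/- library. fgf1b had 27 and 22 counts in WT and 7 in each thraa-/- library (-1.78; -1.75 without replicate 1, -1.80 without replicate 2, and -1.63 without WT replicate 1). acvr1c had 28 and 10 counts against 0 and 1, a ratio of 37.7 (interval 6.38 to 1530; fitted log2 values -4.05 and -7.26 without replicate 1 or 2). bmp7a had 18 and 19 counts against 3 and 4 (-2.35; -2.13 and -2.58, and -2.32 without WT replicate 2). bmpr1ba was at 3.59 and 2.99 against 1.64 and 1.43 CPM (-1.09; -1.19 and -0.99, and -0.96 without WT replicate 1), and bmpr1bb had 5 and 1 counts against 18 and 14 (2.38; 2.22 and 2.53, and 1.66 without WT replicate 2). None of the 8 FGF receptors was called. fgf17, which differed in the uninjured apex of thraa+/-, was at 29.1 and 38.6 CPM in WT and 39.4 and 40.6 CPM in thraa-/- whole hearts. bmp10 ENSDARG00000109233 was at 191 and 189 against 196 and 195 CPM, and neither gene was called.

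**Figure D5:**
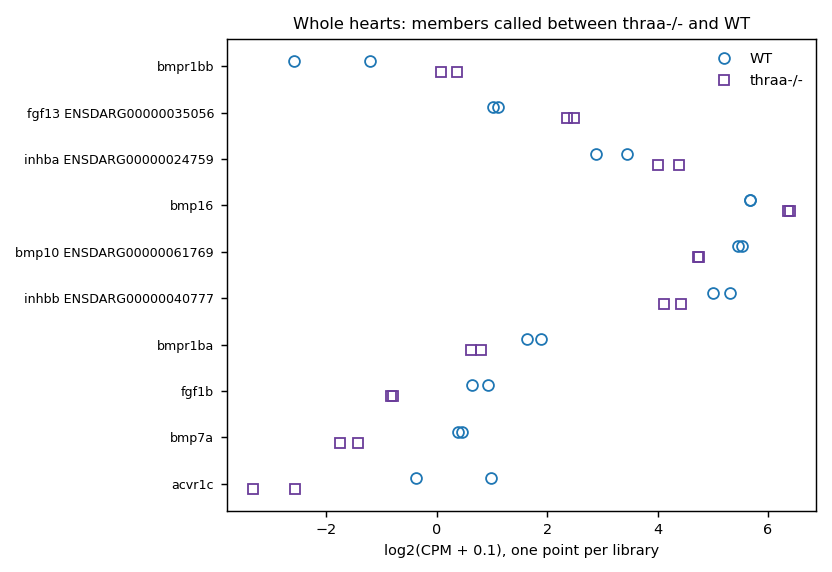
log2(CPM + 0.1) in each library of uninjured whole hearts for the 10 members called between thraa-/- (squares) and WT (circles), ordered by log2 fold change from the lowest at the bottom. The groups do not overlap in any of the 10, which were chosen for being called, nor in 65.2% of all genes. The pairs of points for bmp16 and bmp10 ENSDARG00000061769 lie close together.

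Some receptors and ligands had much higher counts in whole hearts than in the apex, in libraries that were scaled apart from the time course. bmpr2 ENSDARG00000020057 was at 16.2 to 19.2 CPM in whole hearts and 0.102 to 2.01 CPM in the time course, bmpr2 ENSDARG00000011941 at 10.8 to 15.0 and 0.305 to 2.23 CPM, and bmp10 ENSDARG00000061769 at 26.4 to 46.2 and 0.588 to 12.1 CPM. These are values side by side, with no test, since tissue and library set cannot be told apart.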

How the data were processed

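The authors trimmed paired reads with Trim Galore 0.6.10, aligned them with STAR 2.7.9 to GRCz11 and quantified genes with RSEM 1.3.3, per the labels and the processing notes, and deposited expected counts and TPM per gene. The annotation release and strandedness are not given in the sources used here; RSEM shares reads between similar copies, so close paralogs are uncertain. Here expected counts were rounded to whole numbers (94.1% and 93.9% of deposited values were whole already, exactly) and tested with edgeR 4.0.16 (filterByExpr, TMM, robust quasi-likelihood fit, Benjamini-Hochberg over all tested genes) in R 4.3.3. The 24 time-course libraries were fitted together in 12 groups, leaving 17837 genes, and the 4 whole-heart libraries apart, leaving 15793 genes. Symbols were matched to 29201 of 32520 gene IDs. Alternatives were DESeq2 1.42.0, limma 3.58.1 on log2(TPM + 1) and log2(TPM + 0.1), total-count scaling, other filters, a fit of only the compared groups, a replicate block and leaving out each library. Members and lists were chosen with earlier results of these data known. Named members were those with the largest calls of each role at a mean of at least 1 CPM, plus a list of regeneration ligands and receptors; fgf3 and bmp16, and values given for members outside the rule, were added after they were seen. Ratios of low counts use 95% exact intervals, covering counting error only. Where the lower group was at 0, a floor of 3 counts over the group was set and the higher counts were taken as exact. Those folds are therefore no interval bounds. On simulated counts with 4-fold changes, 98 of 100 changed genes were recovered for WT at 7 dpi and 99 of 100 for whole hearts, with 4 and 6 false calls. Only well-counted genes were changed, and all genes had the same fixed spread, smaller than that fitted to the whole hearts. The simulation therefore does not give the recovery for low-count members or for the real whole hearts. With 2 pooled libraries a group, p-values measure the spread between pools.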

Additional observations from a re-analysis of the deposited data

Results flagged for a closer look

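The change from the uninjured apex differed between thraa+/- and WT for the members below, by edgeR's test of the difference itself with Benjamini-Hochberg adjustment over all tested genes. Values are log2 differences, thraa+/- minus WT, and all share the 4 uninjured libraries. For bmp1 ENSDARG00000028071 they were 1.56 at 8 hpi, 1.5 at 1 dpi, 1.31 at 3 dpi, 1.75 at 7 dpi and 1.41 at 15 dpi. For fgf17 the difference was -1.65 at 8 hpi, -1.58 at 1 dpi, -1.86 at 7 dpi and -1.27 at 15 dpi. inhba ENSDARG00000012671 gave 1.57 at 8 hpi, which was lost without WT uninjured replicate 1 (0.73) or thraa+/- uninjured replicate 2 (1.44), 2.57 at 1 dpi and 3.56 at 7 dpi.

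Among the other well-counted members, bmp10 ENSDARG00000109233 gave -1.33 at 8 hpi, fgfrl1 1.39 at 3 dpi, and fgf3 1.25 at 3 dpi and 1.12 at 7 dpi. bmp6 had fewer counts, with 5 and 12 in the uninjured WT apex and 37 and 18 in thraa+/- at 1 dpi. Its difference at 1 dpi, -2.29, was called in every fit on counts that tested the gene. The fgf3 value at 7 dpi was lost without WT 7 dpi replicate 1 (0.72).

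The differences that follow were each lost in 3 or more of the alternatives on counts, and are given with their range on leaving out 1 library. bmp6 gave -1.47 at 3 dpi (-2.19 to -0.873), bmp10 ENSDARG00000061769 -1.84 at 7 dpi (-2.23 to -1.2), fgf14 -1.16 at 8 hpi (-1.97 to -0.667) and fgfr3 -2.17 at 8 hpi (-2.39 to -1.91). fgf18 ENSDARG00000088048 gave 1.54 at 7 dpi (1.18 to 2.11) and 1.62 at 15 dpi (1.01 to 2.41), and fgf1a -2.91 at 7 dpi (-3.31 to -2.52). bmp3 gave -3.98 at 1 dpi (-8.68 to -2.97) and -3.12 at 7 dpi (-7.85 to -2.14), and bmpr2 ENSDARG00000020057 2.81 at 8 hpi (2.3 to 3.77) and 2.89 at 3 dpi (1.52 to 3.89). gdf7, at 0 counts in both uninjured thraa+/- libraries, gave fitted values of 6.48 at 7 dpi (5.68 to 7.03) and 7.13 at 15 dpi (5.32 to 7.81), which are no bounds.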

How the results depend on the processing

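Of 239 called log2 fold changes of the members, 122 stayed called in every alternative on counts that tested them: 44 of 87 after injury in WT, 50 of 81 in thraa+/-, 12 of 31 between genotypes, 15 of 30 differences in response and 1 of 10 in whole hearts. Not every alternative tested all of them. With the filter of 10 counts in every library, 87 kept and 4 lost their call, and the rest were not tested. The fits on TPM are outside the tally on counts. With limma on log2(TPM + 1), 89 of the 239 stayed called, 145 lost their call and 5 reversed. With log2(TPM + 0.1) the numbers were 178, 56 and 5. Most losses named for single genes are those in fits on counts, and losses on TPM are mostly not listed by gene. The numbers of members called were 33 after injury in WT, 33 in thraa+/-, 19 between these genotypes, 15 for a difference in response and 10 in whole hearts. Requiring 10 counts in every library, which tests fewer genes, gave 12, 11, 6 and 7 for the first 4. With limma on log2(TPM + 1) they were 18, 18, 8 and 7. The adjusted p alone gave 32 between genotypes and 25 for a difference in response, and DESeq2 gave 6 in whole hearts. Leaving out 1 library gave 26 to 35 after injury in WT, 27 to 35 in thraa+/-, 18 to 23 between genotypes, 9 (without WT uninjured replicate 2) to 18 for a difference in response, and 2 to 11 in whole hearts (3 without thraa-/- replicate 1, 2 without replicate 2).

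The direction reversed for fgf18 ENSDARG00000088048 on the TPM scale, with 0.197 (WT, 8 hpi), 1.83 (WT, 7 dpi), 1.06 (uninjured, between genotypes), -2.99 and -1.04 (differences in response at 7 and 15 dpi) for log2(TPM + 1), and 0.29, 2.24, 1.65, -4.12 and -1.57 for log2(TPM + 0.1). For fgfr1 ENSDARG00000011190 at 1 dpi in thraa+/- leaving out 1 library gave 0 to 6.09. Total-count scaling ended 42 of the 239 calls and reversed none. Same-numbered libraries deviated together in 1 of 66 pairs of groups by r above 0.1, that of WT and thraa+/- at 8 hpi (0.196). The lowest r was -0.0328 and the median 0.00562. With a replicate block the counts were 33, 32, 19, 15 and 7. Low counts set the limit for most ligands, since 37 of 86 members had too few reads to be tested in the time course.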
